A study of Homo sapiens with 6 samples.

Results

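The genes described are 10 negative feedback genes of mitogen-activated protein kinase (MAPK) signalling, taken by exact gene name from a deposited table with 60623 named gene rows. They are the dual-specificity phosphatase genes DUSP1, DUSP2, DUSP4, DUSP5, DUSP6 and DUSP10, the Sprouty genes SPRY2 and SPRY4, and the Sprouty-related genes SPRED1 and SPRED2. All 10 names were found, and none was repeated. RNA was measured in 6 libraries, which the labels call RPMI-8226, a cell line from a human multiple myeloma, with 3 control libraries and 3 libraries of cells given XYA1353, all at 48 h. The labels equate XYA1353 with the code name P17, file it under genotype, and state neither its dose nor what the controls received. The study's title names signalling through NF-kB, a family of inducible transcription factors, as the target of the compound. The comparison here asks how far the feedback genes of a neighbouring kinase pathway differed between the groups.

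MAPK cascades carry signals from receptors and from cell stress to the nucleus through the kinases ERK, JNK and p38. The phosphatases of the DUSP family remove the activating phosphates from these kinases, and many of their genes are themselves switched on by the cascade that they restrain. Sprouty and SPRED proteins act further upstream, on the RAS to RAF step, and SPRED proteins do so by bringing the RAS inhibitor neurofibromin to the membrane.

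Values were TPM, an abundance per transcript length in which every library is brought to an equal total, so levels can be set side by side between genes, but the sequencing depth is unknown. The libraries went against their label. Of 14 plasma cell markers 13 had a mean under 1 TPM, with CD38, TNFRSF17, JCHAIN, IGLC2, IGLC3 and IGHA1 listed at 0 in every library, while all 14 erythroid markers had a mean of at least 10 TPM. The summed level of the erythroid markers was 10699 to 13401 TPM in control and 7120 to 18737 TPM in XYA1353 libraries. The summed plasma cell markers ran from 65.7 to 71.8 and from 99.9 to 145 TPM, nearly all of it XBP1, a gene of the unfolded protein response that many cell types use. The part of this in the results was not tested. The labels do not say whether the libraries of a group are separate cultures, and the p-values rest on a spread between libraries that may be purely technical.

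The promoters of DUSP1 and DUSP10, the most abundant phosphatase members, are shown because the results turn on these genes. They are the 250 bases before the start of DUSP1 (GRCh38.p14, chr5:172771196-172771445, minus strand) and before each of the starts that RefSeq gives for DUSP10 (chr1:221742090-221742339 and chr1:221736901-221737150, minus strand). Sequences come from RefSeq, are written on the gene strand, and have matches to 3 motifs in capitals. The motifs, searched on both strands, were the AP-1 motif TGANTCA, the cyclic AMP response element core TGACGTC and the ETS core CCGGAAG.
DUSP1: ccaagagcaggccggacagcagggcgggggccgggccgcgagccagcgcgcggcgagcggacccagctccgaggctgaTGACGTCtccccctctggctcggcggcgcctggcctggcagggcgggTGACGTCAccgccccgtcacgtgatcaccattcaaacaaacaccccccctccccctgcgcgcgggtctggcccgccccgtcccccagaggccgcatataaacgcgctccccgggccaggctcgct
DUSP10, first start: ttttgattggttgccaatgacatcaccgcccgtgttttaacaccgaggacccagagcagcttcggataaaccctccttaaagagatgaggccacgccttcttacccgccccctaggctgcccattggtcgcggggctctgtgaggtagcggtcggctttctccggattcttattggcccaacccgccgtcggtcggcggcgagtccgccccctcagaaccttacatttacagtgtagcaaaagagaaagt
DUSP10, second start: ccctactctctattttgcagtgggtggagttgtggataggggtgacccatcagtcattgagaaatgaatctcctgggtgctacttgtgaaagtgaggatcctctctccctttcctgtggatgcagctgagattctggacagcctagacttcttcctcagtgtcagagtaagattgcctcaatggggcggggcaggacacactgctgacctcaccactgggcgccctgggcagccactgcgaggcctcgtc
The DUSP1 window held TGACGTC from 172 to 166 bases before the start and again from 125 to 119. The second of these overlapped a match on the opposite strand from 124 to 118, because the letters there form a palindrome. Neither DUSP10 window held any of the 3 motifs. Promoter entries were found for 8 members, with 12 windows in all, and DUSP1 was the only one of the 8 with a match. Among 35116 promoter windows of the same length, 3.12% held the response element core, 6.57% the AP-1 motif and 8.52% the ETS core. These matches are a description of letters in a window.

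Among the members, DUSP10 and DUSP5 rose in XYA1353 libraries, and no member fell. DUSP1 averaged 1.99 times its control level, but its groups overlapped and its call depended on whether libraries were compared within replicate number. The 4 SPRY and SPRED genes were not called, with log2 fold changes from -0.31 to 0.11, and DUSP2, DUSP4 and DUSP6 were at or near 0 in both groups. Of the 10 members 7 had a mean of at least 1 TPM and were tested, and 2 of those were called higher at a limma adjusted p under 0.05, a rule that called 31.4% of all 13392 tested genes, 15.4% higher and 16.0% lower. The median log2 fold change was 0.11 over the 7 members and 0.02 over all tested genes. The control mean of DUSP5 lay under 1 TPM, so that it passed this filter only through its XYA1353 values, and the count is a description of the members and not support for a response of the group. In libraries made from whole cultures, fewer cells of a type and less RNA per cell cannot be told apart.

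**Figure D1:**
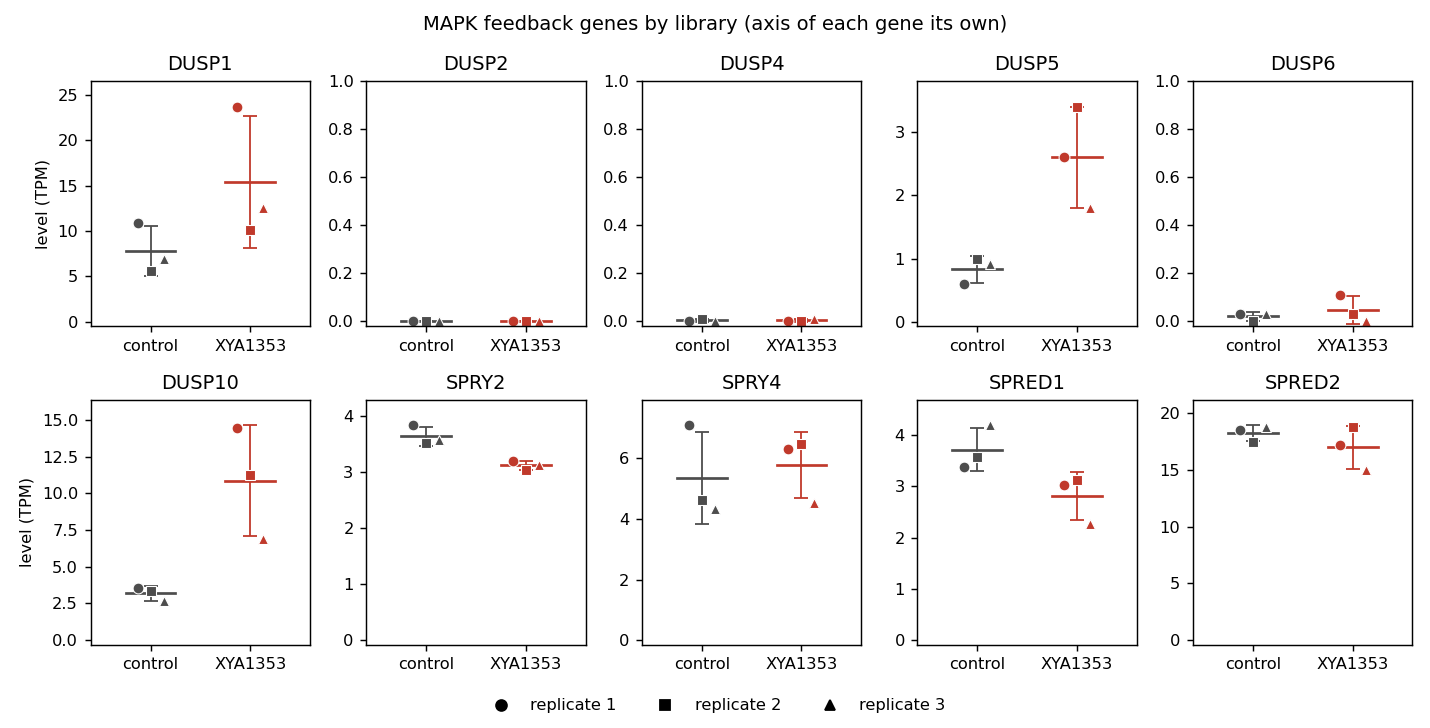
Level in TPM (vertical axis, each gene on its own scale) of the 10 members in 3 control and 3 XYA1353 libraries, with symbols for the replicate number, a bar for the group mean and whiskers for the SD (n = 3). DUSP10 and DUSP5 (higher in XYA1353) and SPRY2 and SPRED1 (lower, not called) do not overlap between groups, like 47.6% of all tested genes. DUSP1, SPRY4 and SPRED2 overlap, and DUSP2, DUSP4 and DUSP6 lie at or near 0 in both groups.

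DUSP10, whose product acts on JNK and p38 more than on ERK (ENSG00000143507, GRCh38 chromosome 1, 221701424 to 221742176, minus strand), had values of 3.57, 3.35 and 2.64 TPM in control replicates 1, 2 and 3. In XYA1353 replicates 1, 2 and 3 it stood at 14.42, 11.22 and 6.89 TPM. The groups did not overlap, and the lowest treated library was replicate 3. The means were 3.19 ± 0.486 and 10.8 ± 3.78 TPM (SD, n = 3), a ratio of 3.4. The log2 fold change, taken on log2(TPM + 1) and so an understatement for low genes, was 1.45 (SE 0.25, limma adjusted p = 0.00531). Of all tested changes 98.1% were lower than this one. The call held without any 1 library, with limma adjusted p from 0.00216 to 0.0295.

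DUSP5, a nuclear phosphatase that acts on ERK (ENSG00000138166, chromosome 10, 110497838 to 110511544, plus strand), was at low levels throughout. Control replicates 1, 2 and 3 had 0.59, 0.99 and 0.91 TPM, and XYA1353 replicates 1, 2 and 3 had 2.6, 3.4 and 1.8 TPM. The groups did not overlap, and replicate 3 was again the lowest treated library. The means were 0.83 ± 0.21 and 2.60 ± 0.80 TPM (SD, n = 3), a ratio of 3.13. On the log2 scale DUSP5 rose by 0.96 (SE 0.23, limma adjusted p = 0.0177). With a pseudocount of 0.1 the log2 fold change was 1.52. The call was lost without control replicate 1 (limma adjusted p = 0.0544) and without XYA1353 replicate 2 (adjusted p = 0.059).

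DUSP1, a nuclear phosphatase of p38, JNK and ERK and an immediate early gene (ENSG00000120129, chromosome 5, 172768090 to 172771195, minus strand), had 10.84, 5.58 and 6.90 TPM in control replicates 1, 2 and 3. It had 23.71, 10.08 and 12.52 TPM in XYA1353 replicates 1, 2 and 3. Library 1 was the highest in each group, and control replicate 1 lay above XYA1353 replicate 2, so the groups overlapped. The means were 7.77 ± 2.74 and 15.4 ± 7.27 TPM (SD, n = 3), a ratio of 1.99. The log2 fold change was 0.86 (SE 0.33), which missed the threshold (limma adjusted p = 0.086). Without any 1 library it ran from 0.52, without XYA1353 replicate 1, to 1.10, without XYA1353 replicate 2 (limma adjusted p from 0.0708 to 0.234). Within replicate numbers 1, 2 and 3 the treated level was 2.19, 1.81 and 1.81 times the control level. With the replicate number as a block in the fit the log2 fold change was the same, with SE 0.11 and limma adjusted p = 0.00679, and 32.0% of all genes were called. The block raised the number of members called higher to 3. The pairing was read from these same data, in which same-numbered libraries deviate together, and not from a statement in the labels. The AC022217.3 antisense gene, which overlaps DUSP1, stood at 0.04 TPM in control and was listed at 0 in XYA1353 libraries.

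FOS and EGR1, immediate early genes that ERK and its relatives switch on within minutes of a signal, were also highest in the libraries numbered 1. So were IER2, FOSL1 and the member DUSP10, but this did not hold for every ERK output gene. MYC was lowest in number 1 of both groups (110.2 and 91.76 TPM), and IER3 was lowest in control replicate 1 (13.79 TPM) and second to replicate 2 among XYA1353 libraries (119.2 against 128.5 TPM). FOS, an AP-1 subunit gene, stood at 63.76, 38.47 and 28.03 TPM in control replicates 1, 2 and 3, and the XYA1353 libraries had 107.1, 55.77 and 41.26 TPM. Its log2 fold change was 0.60 (limma adjusted p = 0.282, or 0.00647 with the replicate block). EGR1, a zinc finger factor gene, stood at 260.1, 122.8 and 124.5 TPM in control and 211.7, 153.5 and 135.2 TPM in XYA1353 libraries. Its log2 fold change was 0.05 (limma adjusted p = 0.922, or 0.791 with the block). FOS, like DUSP1, passed with the block alone, and EGR1 passed in neither fit. These genes were chosen after their values were seen, and what sets the libraries numbered 1 apart was not tested.

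**Figure D2:**
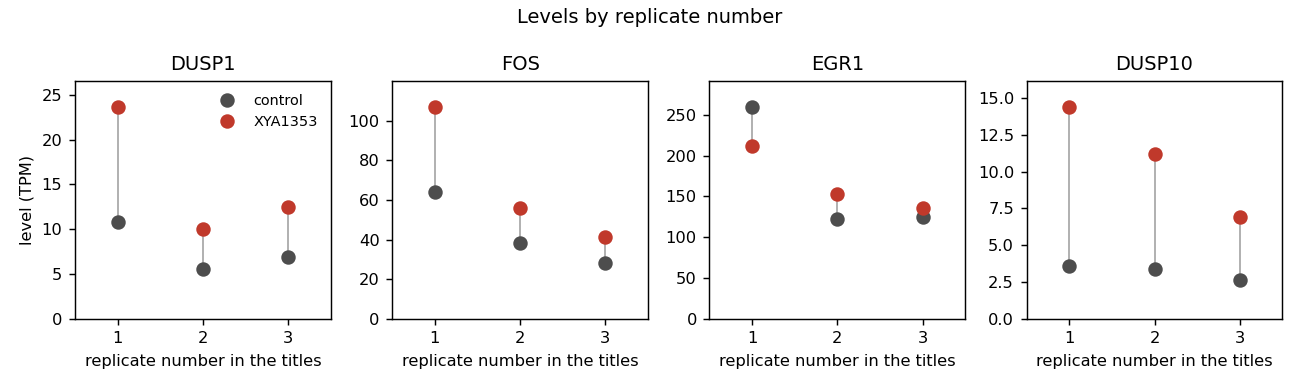
Level in TPM (vertical axis from 0) of DUSP1, FOS, EGR1 and DUSP10 by the replicate number in the sample titles (horizontal axis), with grey points for control, red points for XYA1353 and a line joining libraries of the same number. DUSP1, FOS and DUSP10 were highest in number 1 in both groups and higher with XYA1353 in every pair, while EGR1 was lower with XYA1353 in number 1 (260.1 against 211.7 TPM).

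The remaining phosphatase members gave little or no signal. DUSP2, a nuclear phosphatase gene known from blood cells (ENSG00000158050, chromosome 2, 96143166 to 96145440, minus strand), was listed at 0 in all 6 libraries. DUSP4, another nuclear phosphatase gene (ENSG00000120875, chromosome 8, 29333064 to 29350668, minus strand), reached 0.01 TPM in control replicate 2 and XYA1353 replicate 3 and was listed at 0 in the other libraries. DUSP6, which encodes the cytoplasmic phosphatase of ERK (ENSG00000139318, chromosome 12, 89347232 to 89353271, minus strand), was listed at 0.03, 0 and 0.03 TPM in control and 0.11, 0.03 and 0 TPM in XYA1353 replicates 1, 2 and 3. The depth behind these values is unknown, so no detection limit can be set and no fold is given.

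Summed, the 6 DUSP members stood at 15.0, 9.93 and 10.48 TPM in control and 40.8, 24.7 and 21.2 TPM in XYA1353 replicates 1, 2 and 3. The sums did not overlap between groups, and neither did 47.6% of all tested genes. Nearly all of the sum came from DUSP1, DUSP10 and DUSP5, so it repeats their values and does not describe the whole family. DUSP1 held 64.7 ± 8.02% of that sum in control and 52.6 ± 10.3% in XYA1353 libraries, and DUSP10 held 27.6 ± 5.40% and 37.7 ± 6.78% (SD, n = 3). The ranges of both shares overlapped between groups.

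The Sprouty and SPRED genes showed no called change. SPRED2 was the most abundant member (ENSG00000198369, chromosome 2, 65310851 to 65432637, minus strand). It stood at 18.47, 17.45 and 18.77 TPM in control and 17.20, 18.79 and 14.98 TPM in XYA1353 replicates 1, 2 and 3, with overlapping groups (log2 fold change -0.10, SE 0.10, limma adjusted p = 0.492). The change was -0.018 without XYA1353 replicate 3 and -0.17 without XYA1353 replicate 2. SPRED1 (ENSG00000166068, chromosome 15, 38252326 to 38357249, plus strand) stood at 3.38, 3.58 and 4.19 TPM in control and 3.03, 3.13 and 2.27 TPM in XYA1353 libraries. Every treated library lay below every control library, yet the log2 fold change of -0.31 (SE 0.16) missed the threshold (limma adjusted p = 0.183). Under quantile normalization SPRED1 was called lower, with a log2 fold change of -0.51 (limma adjusted p = 0.0313), and without XYA1353 replicate 3 the change was -0.21.

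SPRY2, an inhibitor of growth factor signalling (ENSG00000136158, chromosome 13, 80335976 to 80340951, minus strand), had values of 3.83, 3.51 and 3.56 TPM in control and 3.20, 3.03 and 3.12 TPM in XYA1353 replicates 1, 2 and 3. The groups did not overlap, and the log2 fold change was -0.17 (SE 0.13, limma adjusted p = 0.357), or -0.38 under quantile normalization (adjusted p = 0.0689). SPRY4, of the same family (ENSG00000187678, chromosome 5, 142310427 to 142326455, minus strand), had values of 7.08, 4.62 and 4.31 TPM in control and 6.31, 6.48 and 4.53 TPM in XYA1353 libraries. Its groups overlapped (log2 fold change 0.11, SE 0.21, limma adjusted p = 0.717), and the direction turned under quantile normalization (-0.052) and without control replicate 3 (-0.0057). The antisense gene SPRY4-AS1 overlaps SPRY4 and averaged 0.14 and 0.22 TPM in control and XYA1353 libraries. In all, 4 of the 7 tested members did not overlap between groups, beside 47.6% of all tested genes. The 4 SPRY and SPRED genes summed to 30.9 ± 1.80 TPM in the control group and to 28.7 ± 3.39 TPM in the XYA1353 group (SD, n = 3).

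In order of control level, SPRED2 (18.2 TPM) lay above DUSP1 (7.77) and SPRY4 (5.34), and these above SPRED1 (3.72), SPRY2 (3.63), DUSP10 (3.19) and DUSP5 (0.83). The control values of DUSP1 and SPRY4 overlapped, as did those of SPRED1, SPRY2 and DUSP10. In XYA1353 libraries DUSP1 (15.4 TPM) and DUSP10 (10.8 TPM) came next after SPRED2 (16.99 TPM), and their values overlapped.

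Near relatives outside the 10 members moved in both directions. Of the 7 remaining MAPK phosphatase, Sprouty and SPRED genes 4 were tested, of which 1 rose, 1 fell and 2 were not called. Among all tested genes 31.4% were called, and 4 genes are too few to compare with that share. DUSP8, a phosphatase of JNK and p38, rose from 0.23, 0.40 and 0.37 TPM to 3.16, 4.47 and 1.53 TPM in replicates 1, 2 and 3 (log2 fold change 1.54, SE 0.30, limma adjusted p = 0.00861). DUSP8 passed the filter only through its XYA1353 values, and whether reads are shared with the row named DUSP8P5 was not tested. DUSP9, a cytoplasmic phosphatase of ERK, fell from 3.32 ± 0.615 to 1.82 ± 0.344 TPM (SD, n = 3; log2 fold change -0.61, limma adjusted p = 0.0407), a call that was lost without control replicate 1 or 2 or XYA1353 replicate 2 or 3, where 0 of these genes fell. DUSP7, of the same ERK-directed class, stood at 7.55 ± 0.18 and 5.49 ± 0.904 TPM (log2 fold change -0.41, limma adjusted p = 0.0597). DUSP9 and DUSP7 were named after their values were seen. SPRY1, SPRY3 and SPRED3 had means under 1 TPM.

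The list of atypical DUSP genes, together with the pseudophosphatase genes STYX and STYXL1, held 11 tested genes, of which 4 rose, 0 fell and 7 were not called. The share called was 36.4%, beside 31.4% of all tested genes (15.4% higher and 16.0% lower). DUSP13 rose from 9.03 ± 1.14 to 20.2 ± 3.85 TPM (SD, n = 3; log2 fold change 1.07, limma adjusted p = 0.00361). DUSP3, which encodes the phosphatase VHR, rose from 12.5 ± 0.88 to 21.9 ± 2.47 TPM (log2 fold change 0.76, limma adjusted p = 0.00319). DUSP28 and DUSP22, named after their values were seen, also rose, by 0.69 and 0.52, and each call was lost without some single libraries (limma adjusted p up to 0.123 and 0.119). With the replicate block DUSP28 was not called (limma adjusted p = 0.0772) and STYXL1 was (0.0296). The number that rose was 2 without control replicate 2 or 3 or XYA1353 replicate 1 or 2, and with no filter on low values.

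**Figure D3:**
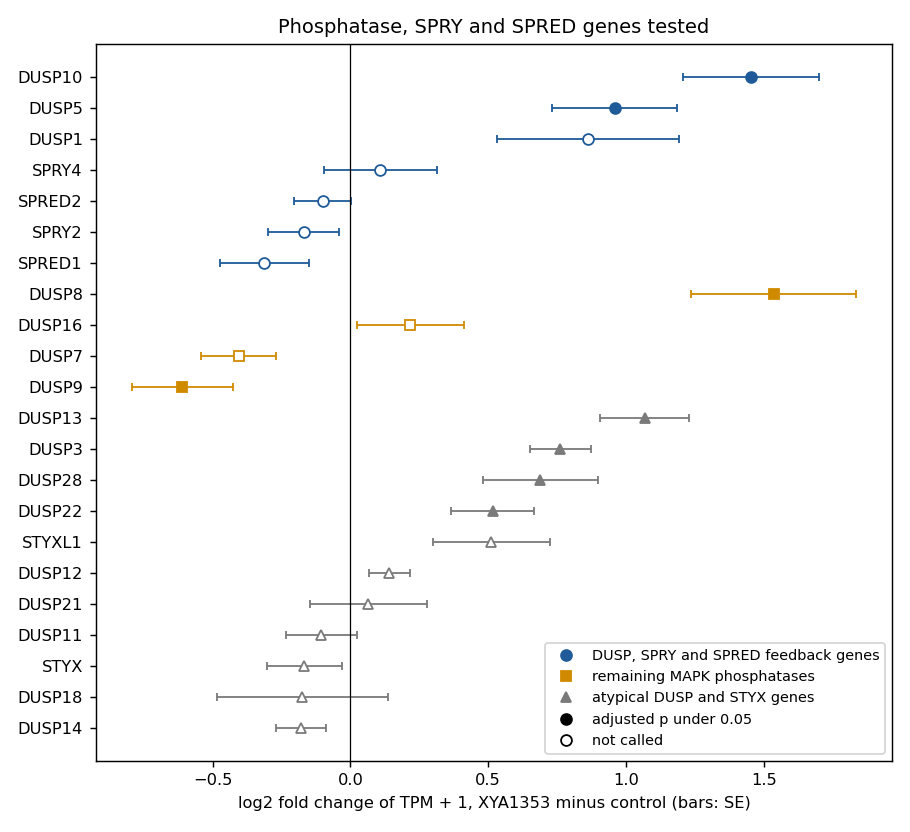
Log2 fold change of TPM + 1, XYA1353 minus control (horizontal axis, bars for the SE of the limma fit), for the 7 tested members and the tested genes of the related DUSP, STYX, SPRY and SPRED families. Filled points were called at an adjusted p under 0.05, and DUSP8 (1.54) and DUSP10 (1.45) lie furthest to the right.

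The kinases and adaptors upstream of the feedback genes were called at shares near that of all genes, with both directions counted together. Those shares were 33.3% for the relay to ERK and 31.6% for the JNK and p38 relay, beside 31.4% of all tested genes. By direction, 15.4% of all tested genes were called higher and 16.0% lower. Of 21 tested genes of the relay from receptor adaptors through RAS and RAF to ERK, 3 rose, 4 fell and 14 were not called. GAB2, a docking adaptor, rose from 12.8 ± 1.25 to 28.7 ± 6.94 TPM (SD, n = 3; log2 fold change 1.08, limma adjusted p = 0.00507), and MAP2K2, which encodes the ERK kinase MEK2, rose by 0.52 (limma adjusted p = 0.00211). PTPN11, which encodes the phosphatase SHP2, fell by 0.53 (limma adjusted p = 0.00211), and SOS1, a RAS exchange factor, fell by 0.48 (limma adjusted p = 0.0206). The SOS1 call was lost without any 1 control library or XYA1353 replicate 2 (limma adjusted p from 0.0518 to 0.0778). MAPK3, which encodes ERK1, also rose, and GRB2 and RPS6KA3 also fell, all named after their values were seen, and each of these calls was lost without some single libraries (limma adjusted p up to 0.0759). Without control replicate 2, 1 of these genes fell, without control replicate 3, 2 fell, and without XYA1353 replicate 3 or under median-of-ratios scaling, 5 rose.

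Of 19 tested genes of the JNK and p38 relay, 1 rose, 5 fell and 13 were not called. Falls thus outnumbered rises, whereas 15.4% of all tested genes were called higher and 16.0% lower. The difference from all genes was not tested. MAPK11, which encodes p38 beta, rose by 0.67 (limma adjusted p = 0.0457). MAP3K4, an upstream stress kinase, fell by 0.54 (limma adjusted p = 0.039) and MAP2K3, a p38 kinase, by 0.53 (limma adjusted p = 0.0307). Leaving out any control library, XYA1353 replicate 1 or XYA1353 replicate 2 ended all 3 of these calls (limma adjusted p from 0.0661 to 0.151). In those fits 1 or 2 genes of the relay fell, and 0 or 1 rose. Without XYA1353 replicate 3 or under median-of-ratios scaling, 3 rose. With eBayes without a trend 0 rose, with a mean of at least 5 TPM 2 rose, and when low values were kept 0 rose and 2 fell. The MAP3K4 call was lost under median-of-ratios scaling, quantile normalization and eBayes without a trend (limma adjusted p = 0.051, 0.0544 and 0.059), and the MAPK11 call under the latter 2 (0.0629 and 0.0623). With no filter all 3 calls were lost (limma adjusted p from 0.0835 to 0.124). The other members that fell, chosen on sight of their values, were MAP3K20, MAPKAPK3 and MAPK9. Each of these calls was lost without some single libraries (limma adjusted p up to 0.057, 0.062 and 0.125). The MAPK9 call was lost with the replicate block (limma adjusted p = 0.0577).

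Another list held other brakes on RAS and ERK, together with genes such as TESK1, whose product binds Sprouty proteins and need not be a brake. Of its 16 tested genes, 2 rose, 2 fell and 12 were not called. Over all tested genes 31.4% were called, 15.4% higher and 16.0% lower. The counts for this list are a description and do not show that brakes rose or fell. TESK1, a kinase that binds Sprouty proteins, rose from 7.74 ± 2.05 to 15.7 ± 0.751 TPM (SD, n = 3; log2 fold change 0.96, limma adjusted p = 0.00679). PEBP1, which encodes the RAF kinase inhibitor protein, fell from 246 ± 12.6 to 162 ± 13.002 TPM (log2 fold change -0.60, limma adjusted p = 0.00212). PPP2CA, a catalytic subunit of protein phosphatase 2A, fell by 0.21 (limma adjusted p = 0.0421). That call was lost with the replicate block (limma adjusted p = 0.0711), and 1 of these genes fell. It was also lost on leaving out any control library, XYA1353 replicate 1 or XYA1353 replicate 2 (limma adjusted p from 0.0808 to 0.125), again with 1 gene falling. Median-of-ratios scaling, no filter on low values and eBayes without a trend ended it too (limma adjusted p = 0.0764, 0.0678 and 0.104), and under quantile normalization the fall was by 0.098 (adjusted p = 0.24). CBLB, a ubiquitin ligase gene named after its values were seen, also rose.

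Of 10 tested ERK output genes other than the members, 2 rose, 1 fell and 7 were not called. That is 30.0% called, near the 31.4% of all tested genes (15.4% higher and 16.0% lower). IER3, an early response gene, rose from 17.5 ± 3.25 to 108 ± 26.9 TPM (SD, n = 3; log2 fold change 2.55, limma adjusted p = 0.00122). PHLDA1, named after its values were seen and past the filter only through its XYA1353 values, rose from 0.73 ± 0.12 to 7.43 ± 2.19 TPM (log2 fold change 2.26, limma adjusted p = 0.00126). CCND1, the cyclin D1 gene, fell from 25.2 ± 1.16 to 13.5 ± 1.15 TPM (log2 fold change -0.86, limma adjusted p = 0.00159). ETV4 and ETV5, ETS factor genes that ERK signalling maintains, had log2 fold changes of -0.15 and 0.10 (limma adjusted p = 0.364 and 0.583). With the replicate block 4 of these genes rose, with FOS and IER2 called in addition (limma adjusted p = 0.00647 and 0.046). In that fit 15.8% of all tested genes were called higher.

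**Figure D4:**
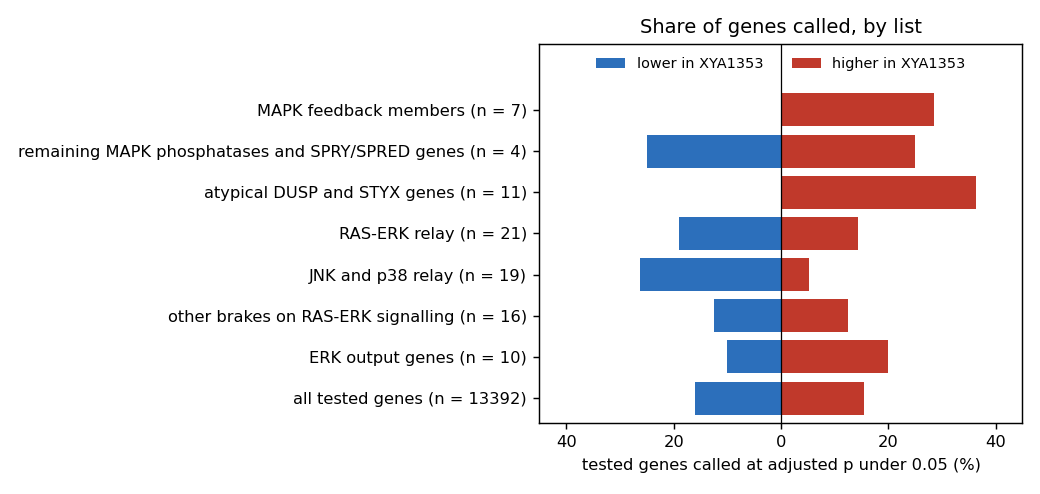
Share of tested genes called higher (red, to the right) and lower (blue, to the left) in XYA1353 libraries at a limma adjusted p under 0.05, in percent, for each gene list and for all 13392 tested genes. The lists hold few genes each (n in brackets), so a single call moves a bar far.

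The transcripts whose pattern over the 6 libraries was most like that of DUSP10 were NAA11, an acetyltransferase gene, COPA, which encodes a coatomer subunit, and MKNK2, a kinase gene, out of 9898 genes with a mean of at least 5 TPM, with Pearson's r of log2 values of 0.9988, 0.9984 and 0.9978. The points share the difference between groups, and r is given as a description. MKNK2 stood at 55.43, 52.52 and 50.65 TPM in control and 114.2, 100.1 and 75.76 TPM in XYA1353 replicates 1, 2 and 3, with replicate 3 the lowest treated library as for DUSP10. Its log2 fold change was 0.84 (SE 0.14, limma adjusted p = 0.00532).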

How the data were processed

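Expression was measured by RNA-seq in 6 libraries, 3 control and 3 XYA1353, grouped and numbered by the sample titles. The authors deposited TPM per gene in a table with a column per library, and their group means were not used. The submitters' processing notes name a mouse build, but the table held 0 mouse identifiers; which aligner, counter, annotation and strand setting the authors used is not given in the sources used here, so values of overlapping and near-identical genes are uncertain. GRCh38 positions come from GENCODE by identifier. TPM carry no depth, so no counting interval or detection limit is given, and an exact 0 can be a failed estimate.

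Named genes with a mean of at least 1 TPM, 13392 of 60623, were fitted as log2(TPM + 1) with limma 3.58.1 (eBayes with trend) in R 4.3.3, with no covariate, after the procedure was tested on simulated data. Calls were two-sided at a Benjamini-Hochberg adjusted p under 0.05 over all tested genes. Tables and figures used pandas 2.3.3 and matplotlib 3.10.9 in Python 3.11.15. The members, lists and tests were chosen with earlier results of these data known. Genes named were all members, and in each other list up to 2 called genes with the largest rise and 2 with the largest fall at a mean of at least 5 TPM, or else the gene with the largest change; the 3 genes most like DUSP10 were taken by Pearson's r. Alternatives were another pseudocount, other filters, median-of-ratios scaling, quantile normalization, eBayes without a trend, a replicate block, and each library left out. Same-numbered libraries deviated from their group means together across genes (r = 0.111, 0.114 and 0.133), above 0.1 in each pair. Other pairs lay between -0.116 and -0.002. Deviations within a group cancel out, so negative values in the other pairs follow from the positive ones and add no support. Only the replicate block treated the numbers as pairing the libraries. That pairing was read from these same data, and the labels do not state it. The main fit and its calls did not use it.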

Additional observations from a re-analysis of the deposited data

How the results depend on the processing

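Over all tested genes, leaving out any 1 library gave 1200 to 2350 genes higher and 1408 to 2110 lower, against 2067 and 2143 with all libraries. Among the members the number higher was 1 to 2 and the number lower 0 to 0 in those fits. It was 1 without control replicate 1 and without XYA1353 replicate 2, where DUSP5 was lost. With a mean of at least 5 TPM 1 member was higher, since DUSP5 was no longer tested, and under quantile normalization 1 member, SPRED1, was lower. The other pathway lists held 4, 11, 21, 19, 16 and 10 tested genes, and over these lists together 13 genes rose and 13 fell. Of all tested genes 15.4% were called higher and 16.0% lower. The counts for the lists are a description and not support for a response of the pathway. Leaving out any 1 library gave 9 to 19 listed genes higher and 5 to 13 lower. The lowest number of falls was without control replicate 2 and the highest number of rises without XYA1353 replicate 3. With no filter on low values 8 of these genes fell. Without XYA1353 replicate 3 more genes were called higher than with all libraries, both over all genes (2350) and over the lists (19). The causes of these differences were not tested. The log2 fold change of SPRY4 reversed under quantile normalization (-0.052), and it ran from -0.0057 without control replicate 3 to 0.30 without control replicate 1. With the replicate block 2110 genes rose and 2176 fell, 3 members rose and 0 fell, and among the listed genes 16 rose and 12 fell. Among members the block changed only the DUSP1 call. Among other genes named it added FOS, IER2 and STYXL1 and ended the calls of DUSP28, MAPK9 and PPP2CA. Unknown depth limits what can be said of DUSP2, DUSP4 and DUSP6.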

Other observations

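MYC, a growth factor-responsive transcription factor gene on the ERK output list, ran against FOS and DUSP1 over the libraries. It stood at 110.2, 227.7 and 222.0 TPM in control replicates 1, 2 and 3, and the XYA1353 libraries had 91.76, 209.9 and 216.3 TPM, so that library 1 was the lowest in each group. FOSL1, another AP-1 subunit gene, stood at 33.94, 16.32 and 10.54 TPM in control and 26.47, 16.46 and 10.22 TPM in XYA1353 libraries, highest in library 1 of each group. Neither was called with all libraries (limma adjusted p = 0.817 and 0.855) or with the replicate block (adjusted p = 0.168 and 0.402). SPRED3, the remaining SPRED gene, had 0.25, 0.06 and 0.23 TPM in control and 1.57, 0.88 and 0.46 TPM in XYA1353 libraries, under the 1 TPM mean and so outside the test. These genes were chosen after their values were seen.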
